A study of Mus musculus with 2 samples.

Results

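Internal promoter regions bound by SRCAP in mouse embryonic stem cells are described here: 535 of the 15659 regions (3.42%, 95% Wilson interval 3.14 to 3.71) left when the SRCAP peaks of 2 samples were pooled and overlapping peaks merged. A region was a member if it overlapped the window from 1000 bp before to 500 bp after the start of a protein-coding transcript that begins at least 5 kb downstream of the most upstream annotated start of its gene, and if it overlapped no such window around the most upstream start of any gene. Starts were taken from GENCODE M21 on mm10, and the most upstream start of a gene is called its first start, whatever transcript it belongs to. The rule used position and annotation only, so peak score, presence in a replicate, base composition and annotation tags were not used to choose members.

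The SRCAP peaks used here come from CUT&Tag, in which an antibody tethers the Tn5 transposase to chromatin so that DNA near the bound protein is tagged for sequencing. The study also mapped SRCAP by another method, CUT&RUN, with an anti-SRCAP antibody, and those data are not used here. Both samples form 1 group, the control condition of the SYAT line, so there is no comparison between conditions. SYAT cells are CGR8 embryonic stem cells, a mouse line, with YPet-AID (a fluorescent protein and an auxin-inducible degron) knocked in at the 3′ end of both Srcap alleles. They derive from 1 homozygous clone that received OsTir1, the plant receptor that makes the degron work, on a lentiviral vector under the EF1a promoter, and they were kept with auxinole, an inhibitor of that receptor, to limit basal loss of SRCAP. All cells thus carry tagged SRCAP and OsTir1, were moved to Serum LIF medium before the experiment, and were probed with an anti-GFP antibody that recognises YPet in 200000 cells per sample, with transposition for 1 h. The lists hold peaks and no expression values, so the cell type could not be checked against its markers. Replicates 1 and 2 held 6158 and 12958 peaks. The study describes its replicates in general as separate cultures.

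SRCAP is the catalytic ATPase of a chromatin remodelling complex that swaps the histone H2A of a nucleosome for H2A.Z, a variant that is abundant in nucleosomes beside active start sites. Many mammalian genes have more than 1 promoter. A promoter inside a gene gives a transcript with another first exon, which can remove part of the protein, change its first residues or change only the 5′ untranslated region. Dnmt1 is a well known case: oocytes start the gene at an upstream exon, whereas other cells start it at an internal promoter that gives the somatic form of this maintenance DNA methyltransferase.

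Stretches of 150 bases just before the internal start are printed for members named below that were covered in both replicates, where a peak covered the stretch and no exon overlapped it. For Tef the peaks of both replicates covered it. For Stag1 and Saysd1 the replicate 2 peak covered it and the replicate 1 peak covered part of it, and for Dnmt1 the replicate 2 peak alone reached it. They show the sequence next to the start at some of the bound regions classed here as internal promoters. Each reads 5′ to 3′ along the strand of its gene, from the RefSeq GRCm38.p6 genome (the assembly of mm10), and capitals mark matches on either strand to 8 short motifs searched. Stag1 lies at chr9:100643298-100643447 on the plus strand and Tef at chr15:81811264-81811413 on the plus strand. Saysd1 lies at chr14:20083184-20083333 on the minus strand and Dnmt1 at chr9:20952980-20953129 on the minus strand.
Stag1: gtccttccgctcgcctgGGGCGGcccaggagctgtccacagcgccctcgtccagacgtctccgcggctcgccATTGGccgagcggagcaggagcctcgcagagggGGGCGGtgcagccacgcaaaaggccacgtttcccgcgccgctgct
Tef: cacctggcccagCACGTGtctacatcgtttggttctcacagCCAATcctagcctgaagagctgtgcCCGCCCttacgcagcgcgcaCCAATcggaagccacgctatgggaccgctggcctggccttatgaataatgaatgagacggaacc
Saysd1: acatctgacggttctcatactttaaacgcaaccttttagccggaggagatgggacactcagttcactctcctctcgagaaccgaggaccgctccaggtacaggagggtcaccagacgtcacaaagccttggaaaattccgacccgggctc
Dnmt1: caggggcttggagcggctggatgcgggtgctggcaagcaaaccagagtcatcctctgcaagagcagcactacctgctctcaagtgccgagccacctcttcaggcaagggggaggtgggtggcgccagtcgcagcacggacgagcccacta

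The Stag1 stretch was the richest in G and C (72.7%, 18 CpG) and held a GC box on each side of a CCAAT box. In the Tef stretch (58.0% GC, 10 CpG) an E-box and 2 CCAAT boxes flanked a GC box. The Saysd1 stretch (54.0% GC, 9 CpG) and the Dnmt1 stretch (64.0% GC, 7 CpG) held none of the 8 motifs, which says only that these letters are not in these stretches. In the wider windows around the region midpoints used for the motif counts below, Saysd1 had a GC box and an E-box, and Dnmt1 a GC box, a CCAAT box and an NRF1 site. With starts taken only from GENCODE basic transcripts, a subset described below, the regions of Tef and Dnmt1 were still internal. Those of Stag1 and Saysd1 then lay at a first start.

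Of the 535 regions, 142 had a peak in each list, 77 had 1 in replicate 1 alone and 316 had 1 in replicate 2 alone. Members made up 3.56% of the peaks of replicate 1 (219 of 6158) and 3.53% of those of replicate 2 (458 of 12958), a mean of 3.55% ± 0.0155 (SD, n = 2). The lists differed in length by far more than in this share. The merged regions also held 5863 at the first start of a protein-coding gene, 7924 outside all promoter windows and 1337 at other starts, and the first 2 classes served as references. The members named 497 different nearest genes, 36 of them with 2 or more regions and 2 with 3 regions, so members of 1 gene are not separate observations of that gene.

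Members lay at a median of 26252 bp from the first start of their gene, from 5081 to 2099543 bp. By distance, 113 lay at 5 to 10 kb, 112 at 10 to 20 kb, 127 at 20 to 50 kb, 85 at 50 to 100 kb and 98 at 100 kb or more. Just inside the 5 kb limit were 2 regions of Ttyh1 at 5081 bp (scores of 23 and 36, both in replicate 1) and 1 of Eif4g1 at 5085 bp (36 in replicate 2). Just outside it were Park7 at 4954 bp (56 in replicate 2), Asl at 4947 bp (37 and 35) and Tspan3 at 4935 bp (43 in replicate 2). The member farthest from a first start was in Dmd. Midpoints of 298 regions lay in introns and of 237 in exons, and the transcript that begins at the first start ran across the internal start in 472 cases (88.2%). That first transcript was itself protein-coding for 405 members (75.7%).

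The regions lay evenly to both sides of the internal start: the midpoint was downstream of the nearest internal start in 267 and upstream in 266, with a median offset of 0 bp and a median absolute offset of 168 bp. It fell within 200 bp of the start in 57.9% of members and within 500 bp in 89.7%, and 308 members (57.6%) contained an internal start. The promoter window itself limits how far away a member can lie, so these offsets describe positions within that window.

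**Figure D1:**
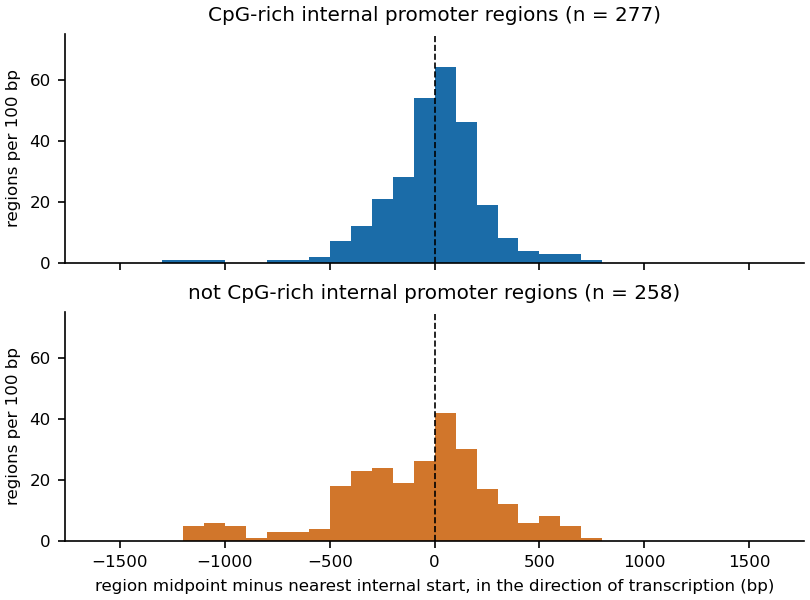
Histograms of the distance in bp from the nearest internal start to the region midpoint, positive downstream, for 277 CpG-rich members (top) and 258 other members (bottom), with the number of regions per 100 bp on the y axis and the start as a dashed line. The median absolute offset was 129 bp in the upper panel and 225.5 bp in the lower one.

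The score in each list is 10 times −log10 of the q-value of the peak caller, so it measures how far a peak stands above background in that library, and it can be compared only within a list. Members scored from 13, the lowest score in either list, to 132 in replicate 1 (median 31, 219 regions) and to 160 in replicate 2 (median 40, 458 regions). Regions covered in both replicates scored higher than those covered in 1: medians of 38 against 23 in replicate 1, and of 59 against 35 in replicate 2. Across the 142 regions in both lists the scores went together only loosely, with Spearman's rho at 0.470 and Pearson's r at 0.472 for the log10 values. This is a description over regions of the same pair of libraries.

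**Figure D2:**
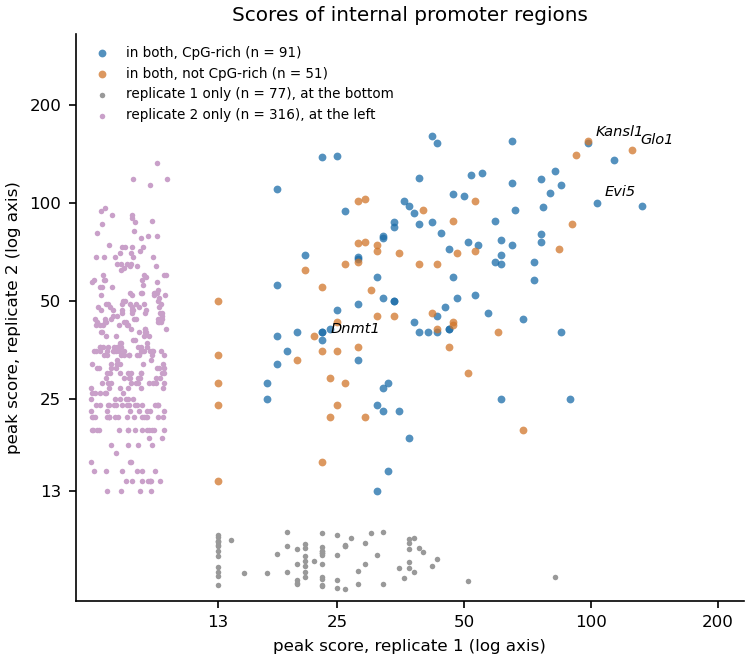
Scatter plot of the peak score in replicate 1 (x axis) against replicate 2 (y axis), both on log axes, for the members covered in both lists, with CpG-rich members in blue and the others in orange. Members found in 1 list stand in strips at the left (replicate 2 only) and at the bottom (replicate 1 only), where only the other axis carries a value. The points in both lists spread widely, with Glo1 at 125 and 145 near the upper right corner.

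The 12 strongest members covered in both replicates (ranked by the poorer of the ranks of a region in the 2 lists) scored 65 to 125 in replicate 1 and 100 to 155 in replicate 2. No peak was called in either list at the first start of any of these 12 genes, beside 414 of all 535 members (77.4%) without one. Midpoints of 8 lay in introns (55.7% of all members). CpG-rich were 9 regions (51.8% of all members, and 64.1% of the 142 covered in both replicates). APPRIS, a database that picks the main protein isoform of each gene, calls some transcripts principal. The promoter window of such a transcript was overlapped by 8 regions (56.4% of all members, and 61.3% of the 142).

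Kansl1, which encodes a scaffold of the NSL histone acetyltransferase complex, had scores of 98 and 153 in replicates 1 and 2 at 26.6 kb from its first start. Stag1, a cohesin subunit, had 80 and 107 at 45.7 kb. Tef, a PAR bZIP transcription factor with circadian expression in many tissues, had 113 and 135 at 8.99 kb.

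Glo1, the glyoxalase that clears methylglyoxal, was among the highest in both lists, with 125 and 145 at 14.3 kb. Slc29a4, a plasma membrane monoamine transporter, had 92 and 140 at 9.59 kb.

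Ndel1, a partner of cytoplasmic dynein, had 76 and 118 at 18.8 kb, and Aktip, which takes part in vesicle trafficking, had 85 and 113 at 65.98 kb. Evi5, a regulator of Rab GTPases, had 103 and 100 at 5.94 kb. Ppp2r5a, a regulatory subunit of protein phosphatase 2A, had 65 and 115 at 6.23 kb. Saysd1 had 82 and 125 at 55.4 kb, and Wdr17, with 98 and 155 at 163 kb, was the farthest from its first start of the 12.

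Whether these 12 are internal depends on which transcripts are counted. When starts were taken only from GENCODE basic transcripts, the subset that leaves out most incomplete models, 5 of the 12 were still internal (among them Kansl1, Glo1, Tef and Ndel1), 6 lay at the first start of their gene (Wdr17, Slc29a4, Saysd1, Aktip, Stag1 and Ppp2r5a) and that of Evi5 lay outside all promoter windows. The same held for the whole set: 293 of the 535 were still internal (54.8%, 50.5 to 58.9), 138 lay at a first start (25.8%), 93 lay outside promoters and 11 at other starts. Of the 138 that moved to a first start, 133 overlapped the window of a principal start and 101 were CpG-rich, whereas of the 293 that stayed internal 163 did so and 147 were CpG-rich. Regions were covered in both replicates in 30.4% of the 138 (23.4 to 38.6) and 27.6% of the 293 (22.8 to 33.0), intervals that overlap.

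Presence in both replicates was compared with the reference classes, since the rule did not use it. Members were covered in both replicates in 26.5% (23.0 to 30.4), against 32.9% of regions at first starts, a difference of −6.39 percentage points (95% Newcombe interval −10.2 to −2.32; two-sided Fisher exact test, p = 0.00384 adjusted over 18 tests). Against regions outside promoters (13.9%) the share was higher by 12.6 points (8.97 to 16.6; Fisher exact test, adjusted p = 5.51e-13). At a score of at least 50 this difference was 4.52 points (21.7% against 17.2%) and did not pass (Fisher exact test, adjusted p = 0.418). The gap to first starts was not seen once peaks scoring under 50 were dropped, where the shares were 21.7% and 21.2%, nor did it pass the threshold within CpG-rich regions (32.9% against 35.5%), within the others (19.8% against 24.1%) or with basic transcripts (27.6% against 32.9%, Fisher exact test, adjusted p = 0.0910).

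Strong peaks were also less frequent than at first starts. In replicate 1, 20.5% of members scored at least 50, against 28.1% of first-start regions (difference −7.50 points, −12.6 to −1.43; Fisher exact test, adjusted p = 0.0248), and in replicate 2, 33.0% against 42.9% (difference −9.97 points, −14.3 to −5.34; adjusted p = 7.26e-05). The replicate 1 call was lost with basic transcripts (difference −8.08 points, Fisher exact test, adjusted p = 0.0910) and with a window of 500 bp on each side (−6.36 points, adjusted p = 0.0657). The replicate 2 call was lost with lists at equal length (−6.42 points, Fisher exact test, adjusted p = 0.0604). For regions outside promoters the shares were 14.4% and 19.8%. Regions are not replicates, so each of these tests describes the 2 libraries, and the intervals cover counting error only.

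**Figure D3:**
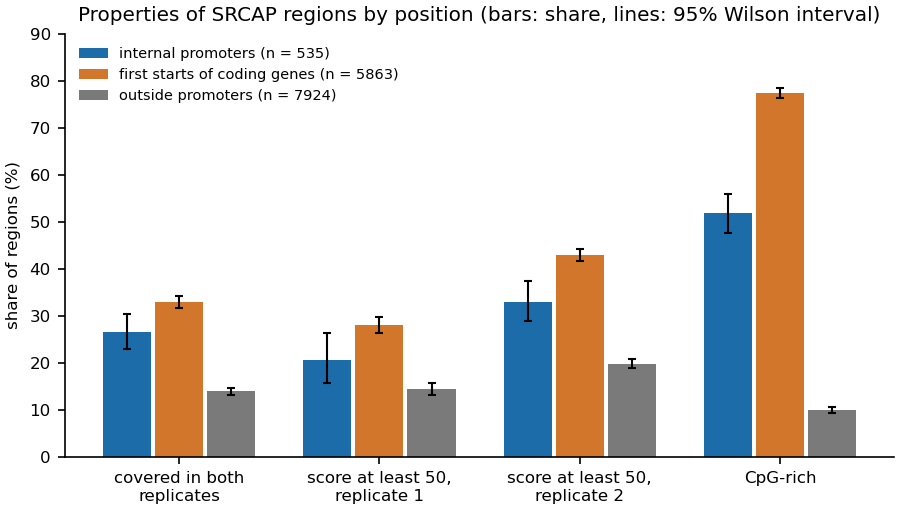
Bar chart of the share of regions in percent, from 0, for 535 internal promoter regions (blue), 5863 regions at first starts of coding genes (orange) and 7924 outside promoters (grey), with 95% Wilson intervals as lines. For each of the 4 properties the internal promoters fall between the other classes, at 26.5% in both replicates and 51.8% CpG-rich.

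CpG content separated internal promoters from both reference classes. A region was called CpG-rich if the 500 bp around its midpoint had at least 50% GC and an observed over expected CpG ratio of at least 0.6. Of the members 277 met this (51.8%, 47.5 to 56.0), against 77.5% of first-start regions (difference −25.7 points, −30.0 to −21.3; Fisher exact test, adjusted p = 2.31e-34) and 10.0% of regions outside promoters (difference 41.8 points, 37.5 to 46.0; adjusted p = 7.10e-116). Median GC was 61.8% in members, 63.2% at first starts and 52.8% outside promoters, and the median CpG ratio was 0.623, 0.755 and 0.312. Only 2 members were soft-masked as repeats over at least 50% of their length.

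CpG-rich members differed from the other 258 in several readouts that are given as descriptions. They overlapped the window of a principal start in 72.6% of cases against 39.1%, and were covered in both replicates in 32.9% against 19.8%. Their regions contained an internal start in 70.8% against 43.4%, and their median scores were 36.5 against 26 in replicate 1 and 43 against 35 in replicate 2. They were also wider, with a median of 421 bp against 371.5 bp. Over all members the median width was 393 bp (236 to 1270), against 426 bp at first starts and 324 bp outside promoters.

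Short motifs were counted in the 300 bp around each midpoint on both strands. No motif searched is contained in another, and a match is a description and not evidence of a bound factor. The GC box GGGCGG, the element of SP and KLF factors, was in 52.5% of members and 60.2% of first-start regions (difference −7.63 points, −12.0 to −3.25; Fisher exact test, adjusted p = 0.00118), beside 36.7% of all regions. The ETS core CCGGAAG was in 8.60% against 14.04% (difference −5.44 points, −7.72 to −2.62; Fisher exact test, adjusted p = 0.000551; 9.39% of all regions) and the YY1 core AAGATGG in 3.55% against 6.16% (difference −2.61 points, −4.03 to −0.590; adjusted p = 0.0191; 9.37% of all regions). All 3 calls were lost once peaks scoring under 50 were dropped, where for example 65.8% and 66.1% held a GC box, and the ETS and YY1 calls were also lost without replicate 2 (differences of −3.43 and −1.32 points). The YY1 call was lost as well at a minimum distance of 20 kb, with lists at equal length and with motifs counted in 500 bp (Fisher exact test, adjusted p = 0.307, 0.115 and 0.255).

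For the other 5 motifs no difference between internal and first promoters passed the test, and the sign changed with the processing for all but the CCAAT box. The CCAAT box was in 30.8% against 33.2% (difference −2.40 points, −6.36 to 1.81; 33.6% of all regions) and the NRF1 site GCATGCGC in 3.36% against 3.72% (−0.354 points, −1.68 to 1.59; 2.02% of all regions). The E-box CACGTG was in 8.22% against 7.61% (0.617 points, −1.54 to 3.33; 6.22% of all regions). The octamer ATGCAAAT, recognised by POU factors such as OCT4, was in 1.12% against 0.921% (0.2005 points, −0.467 to 1.52; 1.44% of all regions), and the TATA box TATAAA in 3.74% against 3.21% (0.532 points, −0.860 to 2.54; 6.72% of all regions). Their adjusted p-values by the same Fisher exact test ran from 0.347 to 0.810.

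To read members against all the internal starts that could have carried a peak, internal starts meeting the rule were joined per gene into 7199 windows in 4900 genes, whether or not a peak was called. A peak fell in 2.93% of these windows in replicate 1, in 6.15% in replicate 2 and in 2.06% in both. The windows at the 21951 first starts of protein-coding genes held a peak in 13.6%, 26.4% and 10.5%. The 2 kinds of window are not built alike. Both had a median width of 1501 bp, but joined internal windows reached 5195 bp and first windows at most 1501 bp. Internal windows that touched a first window were dropped, whereas first windows could overlap each other and share a peak. The difference was −10.7 points in replicate 1 (−11.3 to −10.1; Fisher exact test, adjusted p = 1.35e-174) and −20.2 points in replicate 2 (−21.03 to −19.4; log10 p = −349).

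The share of internal windows with a peak showed no trend with distance from the first start. In replicate 2 it was 6.25% at 5 to 10 kb, 6.36% at 10 to 20 kb, 5.66% at 20 to 50 kb, 6.60% at 50 to 100 kb and 6.13% beyond, and in replicate 1 it stayed between 2.50% and 3.52%. All intervals overlapped within a replicate.

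The share varied more with annotation support. Windows with a principal start held a peak in 5.46% in replicate 1, 12.5% in replicate 2 and 4.33% in both, against 1.87%, 3.49% and 1.10% of the other windows. Starts of CCDS transcripts, whose coding sequence is agreed between annotation groups, gave 4.03% in both against 0.885%, and starts of transcripts with support level 1, the best supported by cDNA evidence, gave 4.17% against 0.798%. Windows with none of these 3 marks held a peak in both lists in 0.715% (26 of 3637).

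**Figure D4:**
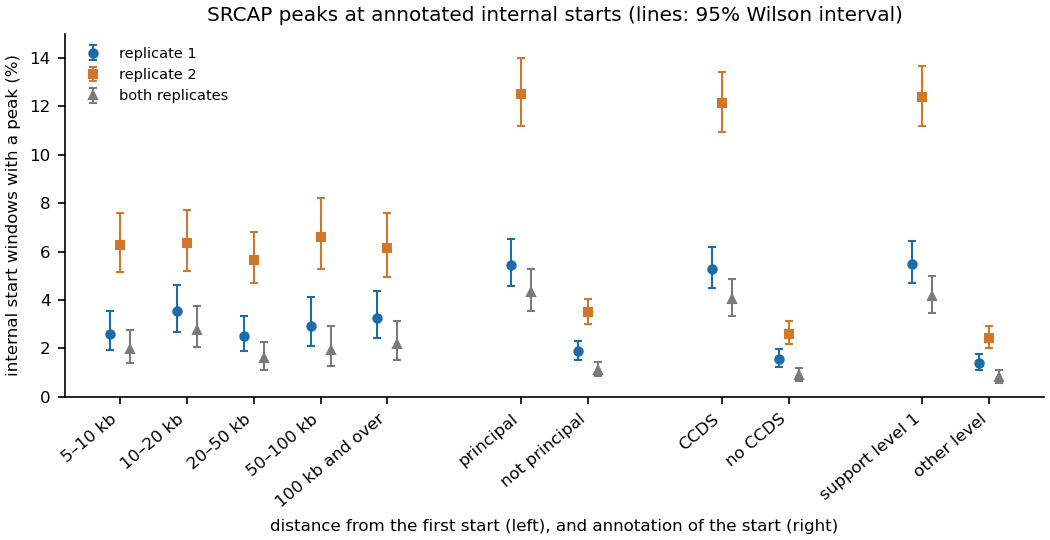
Share of annotated internal start windows with a peak (y axis, percent) by distance from the first start (left) and by annotation of the start (right), for replicate 1 (blue circles), replicate 2 (orange squares) and both (grey triangles), with 95% Wilson intervals. The values stay level across distance, whereas in replicate 2 windows with a principal start reach 12.5% and those without stay at 3.49%.

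Tested the other way round, 62.2% of the windows with a peak in both lists held a principal start (92 of 148), against 28.8% of the other windows (difference 33.3 points, 25.2 to 40.8; Fisher exact test, adjusted p = 3.79e-16). This rested on which transcripts were annotated as starts: with basic transcripts the shares were 56.2% and 50.9% and the difference of 5.27 points did not pass the test (Fisher exact test, adjusted p = 0.355). Of the members themselves, 302 overlapped the window of a principal start (56.4%), 375 that of a CCDS start (70.1%) and 390 that of a start of support level 1 (72.9%).

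A peak inside a gene could come with or without a peak at its first start. The first start carried a peak in either list for 121 members (22.6%, 19.3 to 26.3), in both lists for 47, and in neither for 414 (77.4%). For the 142 members covered in both replicates it was in neither list for 112 (78.9%). In 14 of the 142 the first start was also called in both lists. Among these 14, chosen after their values were seen, Adk (adenosine kinase) had scores of 47 and 106 at its internal promoter, Chd9 (a chromatin remodeller) 29 and 76, and Sertad2 61 and 69.

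Over the 4900 genes with an internal window, 490 had a member (10.0%) and 139 had 1 covered in both replicates (2.84%). The 490 are restricted to genes with a window that touched no first-start window, so they differ from the 497 nearest genes given above. Genes with a peak at the first start had a member less often than genes without (6.75%, 112 of 1659, against 11.7%, 378 of 3241; difference −4.91 points, −6.51 to −3.23; Fisher exact test, adjusted p = 7.07e-08). The gap held in some subsets and not in others. In genes whose internal starts include a principal start the shares were 18.1% and 17.4%, whereas in genes whose internal starts include none the gap remained (2.91% and 6.42%, difference −3.51 points, Fisher exact test, unadjusted p = 9.41e-06). With peaks of score at least 50 they were 3.21% and 3.20%, and with basic transcripts 8.87% and 11.4% (Fisher exact test, adjusted p = 0.0918). With lists at equal length the gap was smaller but passed (4.87% and 7.46%, difference −2.58 points, Fisher exact test, adjusted p = 0.00362). Without replicate 2 the shares were 3.03% and 4.57% (Fisher exact test, adjusted p = 0.129), and with peaks required in both lists 2.36% and 2.90%.

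Genes known for internal promoters were read against the 10.0% of all genes. These shares count genes and do not allow for how many internal windows a gene has, although more windows give more chances of a member. Of 31 such genes with a window 12 had a member (38.7%, 23.7 to 56.2), 10 of them in replicate 2 only, 1 in replicate 1 only and 1 in both, which gives 3.23% in both beside the 2.84% of all genes. The list was put together from textbook cases with earlier results of these data known, and gets no test. None of the 12 had a peak at its first start in either list, which was also so for 378 of all 490 genes with a member.

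Dnmt1 was the member covered in both replicates, with scores of 23 and 38 at 6.91 kb from its first start, in the region whose upstream sequence is printed above. Its region overlapped the window of a principal start, as did those of Rara, a retinoic acid receptor (29 in replicate 2), and of Gnas, an imprinted gene that encodes a G protein α subunit (15 in replicate 2). Tet1, which oxidises 5-methylcytosine, had the highest score of the list, 70 in replicate 2, at 21.7 kb. Acaca, the acetyl-CoA carboxylase of fatty acid synthesis, was the one found only in replicate 1 (43, at 50.2 kb). With basic transcripts 10 of the 12 regions were still internal, and those of Tet1 and Acaca lay outside promoters.

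Neuronal, muscle and developmental genes made up the rest, all in replicate 2 only. Nrxn3, a presynaptic adhesion protein with a long and a short form from separate promoters, scored 62 at 1090 kb, and Bdnf, a neurotrophin with many 5′ exons, 42 at 18.9 kb. Dmd, which gives shorter dystrophins from a series of internal promoters, scored 44 at 2100 kb, and Tpm1, a tropomyosin, 53 at 5.67 kb. Runx1, a blood regulator with a distal and a proximal promoter, scored 36 at 129 kb, Plec, a cytoskeletal linker, 24 at 34.4 kb, and Rarg, another retinoic acid receptor, 18 at 11.0 kb. All but Nrxn3, Tpm1 and Tet1 scored under 50.

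**Figure D5:**
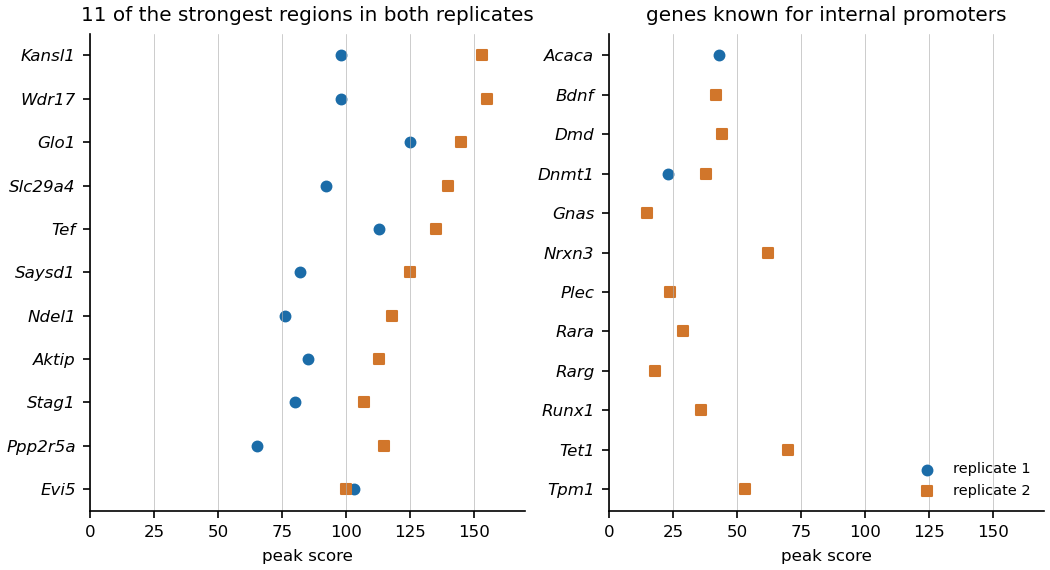
Peak score (x axis, from 0) in replicate 1 (blue circles) and replicate 2 (orange squares) for 11 of the 12 strongest members covered in both replicates (left) and for the 12 genes known for internal promoters that had a member (right), 1 gene per line. The left panel spans 65 to 155, whereas the right panel spans 15 to 70 and only Dnmt1 has both symbols.

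Functional lists were described the same way, with counts beside the 10.0% of all genes and no test. Regulators of small GTPases stood highest, with 20 of 103 genes (19.4%, 12.9 to 28.1), 7 of them covered in both replicates (6.80%, beside 2.84% of all genes). Arhgef7, an exchange factor for RAC and CDC42, had scores of 54 and 74, Tbc1d14 73 and 58, Rabgap1, a Rab GTPase activator, 28 and 67, and Psd3, an ARF6 exchange factor, 57 and 46. Tbc1d14 and Psd3 each had a second member in 1 list only, with 51 in replicate 1 and 31 in replicate 2. The interval for cytoskeleton and adhesion genes (23 of 187, 12.3%, 8.34 to 17.8) contained the background. Covered in both replicates were 8 of the 187 genes (4.28%, beside 2.84% of all genes).

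Very long cytoskeletal genes were among those covered in both replicates. Macf1, a linker of actin and microtubules, had scores of 73 and 66 at 272 kb, and Palld, an actin-bundling protein, 28 and 101 at 312 kb and, in a second member, 34 and 50 at 143 kb. Ank2, an ankyrin that anchors membrane proteins to spectrin, had 3 members, at 273, 337 and 501 kb, of which the middle one was in both lists (31 and 74) and the others in replicate 2 only (26 and 40). Sptbn1, a β-spectrin, had 39 and 86 at 69.9 kb. Pde4d, a cAMP phosphodiesterase with many promoters, was the other gene with 3 members, 2 in replicate 2 (28 and 46) and 1 in replicate 1 (13).

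Gene regulators were near the background. Chromatin regulators had a member in 10 of 77 genes (12.99%, 7.21 to 22.3), with 4 in both replicates: Hdac4, a class IIa deacetylase (77 and 97), Kat6b, an acetyltransferase (44 and 81), the remodeller Chd9 (29 and 76) and Brd3, a BET bromodomain protein (19 and 35). Transcription factors had 13 of 100 (13%, 7.76 to 20.98), with 4 in both: Foxn3 (53 and 71), the NF-Y subunit Nfyc (25 and 47), Mxi1, a MAX partner (61 and 25), and Ets1 (37 and 19). RNA-binding proteins had 7 of 69 (10.1%, 5.00 to 19.5), with Hnrnpm (90 and 86) in both. Covered in both replicates were 5.19% of chromatin regulators, 4% of transcription factors and 1.45% of RNA-binding genes, beside 2.84% of all genes. With basic transcripts the regions of Hdac4, Kat6b, Brd3 and Ets1 lay at first starts. Those of Chd9, Foxn3 and Hnrnpm lay outside promoters, and those of Nfyc and Mxi1 were still internal.

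Signalling and protein turnover genes gave similar shares. Kinases and phosphatases had 20 of 160 (12.5%, 8.24 to 18.5), with 4 in both: Ppp2r5a, Dgke, a diacylglycerol kinase (65 and 74), Ptprs, a receptor phosphatase (23 and 138, with a second member at 35 in replicate 2), and Map3k12, a neuronal kinase (18 and 32). Ubiquitin pathway genes had 15 of 120 (12.5%, 7.72 to 19.6), with 3 in both: the deubiquitinase Usp14 (132 and 98), Rnf44 (41 and 40) and the F-box protein Fbxl2 (85 and 40). In each of these lists 2.5% of the genes were covered in both replicates, beside 2.84% of all genes. Usp14 had the highest score of all members in replicate 1. By the naming rule, 24 regions were taken from these 7 lists, 1 per gene, without the further members mentioned above. With basic transcripts 12 of the 24 were still internal, 7 lay at first starts, 4 outside promoters and 1 at other starts. A peak at the first start was called for 5 of the 24.

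Some members were strong in 1 list and absent from the other, and these were chosen after their values were seen. Acacb, the carboxylase that makes malonyl-CoA at mitochondria, scored 132 in replicate 2 and had no peak in replicate 1. Chd8, a chromatin remodeller, and Nup35, a nuclear pore protein, each scored 118 in replicate 2 only. In the other direction Gatad2a, a NuRD subunit, scored 82 in replicate 1 only. How far depth sets such cases was not tested, since the lists give no read counts.

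Members were spread over the genome much as all regions were. Chromosome 8 held 38 (7.10%, beside 6.99% of all regions), chromosome 7 another 38 (7.10%, beside 5.95%), and the X chromosome 21 (3.93%, 2.58 to 5.93, beside 3.05%). None lay on the Y chromosome, which held 31 of all regions.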

How the data were processed

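Peaks were measured by CUT&Tag for YPet-tagged SRCAP in 2 control samples of SYAT cells, with Drosophila nuclei as spike-in. The submitters' processing notes name STAR, Picard and MACS2 with the genomes mm10 and dm6. According to the study's methods, uniquely mapped read pairs were kept, duplicates removed, mouse reads downsampled by the spike-in and peaks called per sample. The authors deposited 1 peak list per sample with a score, 10 times −log10 of the MACS2 q-value, of at least 13. The study's reporting summary gives a peak call against an input library in its ChIP-seq section, and whether these CUT&Tag peaks had a control library was not stated for them. Each list held 6 mitochondrial peaks, which the rule cannot select. Read depth is unknown, so neither the precision of a score nor the reason for the different list lengths can be given, and an uncalled region is not shown to be unbound.

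From these lists overlapping peaks (at least 1 bp) were merged and classed by GENCODE release 21 starts. Shares were compared by two-sided Fisher exact tests with Benjamini-Hochberg adjustment over 18 tests, a threshold of 0.05, and 95% Wilson (share) or Newcombe (difference) intervals, in Python 3.11.15 with scipy 1.17.1, statsmodels 0.14.6 and pandas 2.3.3, checked on simulated data. Named genes were the 12 regions in both replicates with the best poorer rank and under 50% soft-masked, the genes known for internal promoters, and up to 4 genes per other list covered in both replicates. 1 of the 12 is not reported here by name. Members, lists and tests were chosen with earlier results of these data known. Alternatives were other windows, distances, transcripts, scores, merging, motif and CpG windows, equal list lengths and leaving out each replicate.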

Additional observations from a re-analysis of the deposited data

How the results depend on the processing

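Of 207 alternatives over 20 results, 168 were classed as unchanged, which for a test means the same direction and the same call. The results include counts of regions, which have no direction or call. The 635 internal promoter regions found at a minimum distance of 2 kb were classed as unchanged. The number of internal promoter regions, 535, was 312 at a minimum distance of 20 kb, 294 with basic transcripts, 161 at a score of at least 50, 356 with lists at equal length and 224 to 458 with 1 replicate left out. The difference to first starts in coverage by both replicates was −5.37 points with basic transcripts and reversed to 0.566 at a score of at least 50. That to regions outside promoters was 4.52 at that score and no longer passed. The difference in strong peaks fell short in replicate 1 with a 500 bp window on each side (−6.36) and basic transcripts (−8.08), and in replicate 2 with equal lengths (−6.42). The principal start difference was 5.27 with basic transcripts. The difference between genes with and without a first-start peak was −2.49 with basic transcripts, 0.0103 (reversed) at a score of at least 50, −2.58 with equal lengths, where it passed, and −3.75 to −1.54 with 1 replicate left out.

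At that score the start windows differed by −3.20 points in replicate 1 and −9.69 in replicate 2, and still passed. Among motifs, the GC box difference was −0.267 at that score and −11.8 at 20 kb, where it passed. The ETS core gave −2.88 at a score of at least 50 and −5.14 to −3.43 with 1 replicate left out. The YY1 core gave −1.67 at 20 kb, −1.43 at that score, −2.33 with equal lengths, −1.77 in 500 bp windows and −2.53 to −1.32 with 1 replicate left out. The motifs without a call reversed in 10 cases and passed in none of them. The NRF1 site gave 0.128 at 20 kb, 1.36 at that score and 0.0454 with equal lengths, and the E-box −0.556 at 20 kb and −0.0628 with peaks within 500 bp merged. The octamer gave −0.446 at that score, −0.415 with equal lengths and −0.356 to 0.239 with 1 replicate left out. The TATA box gave −1.22 at that score and −0.455 to 0.0762 with 1 replicate left out.

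Alternatives chosen after seeing the data, with unadjusted p-values, gave −2.65 and −4.36 for coverage by both replicates within CpG-rich and other regions, and for genes 0.662 (reversed) with a principal internal start, −3.51 without one, where the call held, and −0.546 with peaks in both lists. The causes were not tested, beyond the fewer regions each subset holds. No paired analysis was possible because both samples belong to the same group.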
